A study of Homo sapiens with 4 samples.

Results

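The MYC, MAX and MXD network was followed through its 10 listed genes, *MYC*, *MYCN*, *MYCL*, *MAX*, *MXD1*, *MXD3*, *MXD4*, *MXI1*, *MNT*, and *MGA*, in 4 libraries of 2 AT/RT-MYC cell lines. All 10 genes were found by symbol in the count table of 18449 symbols and were among the 18066 genes with a nonzero total. BT-16 and CHLA-266 are patient-derived lines of atypical teratoid/rhabdoid tumor, a malignant brain tumor of infancy, and both carry the label of the MYC subgroup. Untreated cells were grown in serum-containing medium, and treated cells received 1 µM doxorubicin, 5 µM etoposide, and 1 µM vincristine one after another over 3 days. Doxorubicin and etoposide block topoisomerase II, and vincristine blocks microtubule assembly. According to the methods, the agents were given at intervals of 24 h and cells that grew again after about 35 days were harvested. By this description, each treated library is a population regrown from survivors of 1 cell line. Each cell line gave 1 library per condition, so that n was 2 libraries per condition and the cell lines served as the replicates.

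MYC proteins are basic helix-loop-helix leucine zipper factors that bind DNA as pairs with MAX at E-boxes, whose core is CACGTG, and recruit coactivators to growth genes. The MXD proteins and MNT also pair with MAX and, at the same sequence, recruit SIN3 and histone deacetylases, so that they oppose MYC. MGA pairs with MAX as well and is part of the Polycomb complex PRC1.6. In many tissues, *MYC* is high in dividing cells and several MXD genes rise as cells stop dividing and differentiate.

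The network's own promoters were searched for the sequence that its proteins bind. RefSeq windows on GRCh38.p14 were used here for 9 of the 10 genes, with 14 transcript starts in all. The promoter of *MYC* itself was not among them and was not searched. The 250 bases before each start were searched on both strands. The E-box CACGTG was in the windows of *MXD4* and *MNT*, against 6.34% of all 35116 windows. An E2F motif (TTTGGCGC, TTTCGCGC, or TTTCCCGC) was in windows of *MYCN* and *MGA*, against 2.32% of all windows. The 2 E2F matches of *MYCN* overlapped each other. Stretches of 80 bases around these matches are given for *MXD4* (chr4:2262280-2262359, minus strand), *MNT* (chr17:2401210-2401289, minus strand), and *MYCN* (chr2:15940338-15940417, plus strand), because they show which antagonists carry the E-box and where the matches of *MYCN* overlap. Capitals mark the matched letters, and each line runs 5′ to 3′ on the strand of the gene.
MXD4: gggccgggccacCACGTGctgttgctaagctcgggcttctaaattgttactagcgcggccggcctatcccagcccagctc
MNT: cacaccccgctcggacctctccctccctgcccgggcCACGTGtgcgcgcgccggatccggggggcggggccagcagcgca
MYCN: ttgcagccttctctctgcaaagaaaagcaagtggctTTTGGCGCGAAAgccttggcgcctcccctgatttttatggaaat
A match describes these letters in this window and does not show that a factor was bound.

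Total counts ranged from 49849258 to 75087194 per library, with fewer counts after treatment in each line. Levels are given as TMM-normalized CPM, that is, counts relative to the scaled library total, and levels of different genes are compared only per kilobase of exon. The effect of treatment was tested with edgeR's quasi-likelihood test over all 18066 genes with Benjamini-Hochberg adjustment, and a gene was called at an adjusted *p* value under 0.05. The median log2 fold change of all genes was 0.24 with TMM, 0.31 with the size factors of DESeq2, 0.59 under upper-quartile normalization, and 0.46 under plain library totals, so that single values shift with the scaling. *SMARCB1*, whose protein is lost in AT/RT, kept reads in every library (1394 counts before and 981 after treatment in BT-16, 1313 before and 827 after in CHLA-266). The loss that defines the tumor was thus not visible as absent RNA, and protein was not measured here. All 12 listed proliferation markers were called lower after treatment, beside 19.1% of all genes. Their summed levels were 5012 and 5013 CPM before and 253 and 272 CPM after treatment. The methods describe cells that grew again, but whether the treated cells were dividing at harvest was not tested. In these bulk samples, fewer cells of a type and less RNA per cell cannot be told apart.

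Within the network, *MAX*, *MXD1*, *MNT*, and *MYCN* were higher after treatment and *MYC*, *MXD3*, and *MXD4* were lower, while *MYCL*, *MXI1*, and *MGA* did not pass the threshold. The 4 genes called higher stand beside 16.1% of all genes called in that direction, the 3 called lower beside 19.1%, and the 7 called in either direction beside 35.2%. When the cell line entered as a block, *MXI1* and *MGA* passed as well, which gave 5 genes called higher, beside 17.9% of all genes, and 4 called lower, beside 23.7% (41.6% of all genes in either direction). Both treated libraries lay above both untreated libraries for 5 members, as for 40.2% of all genes. Both lay below for 4 members, as for 32.3% of all genes, and only *MYCL* overlapped between the conditions.

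**Figure D1:**
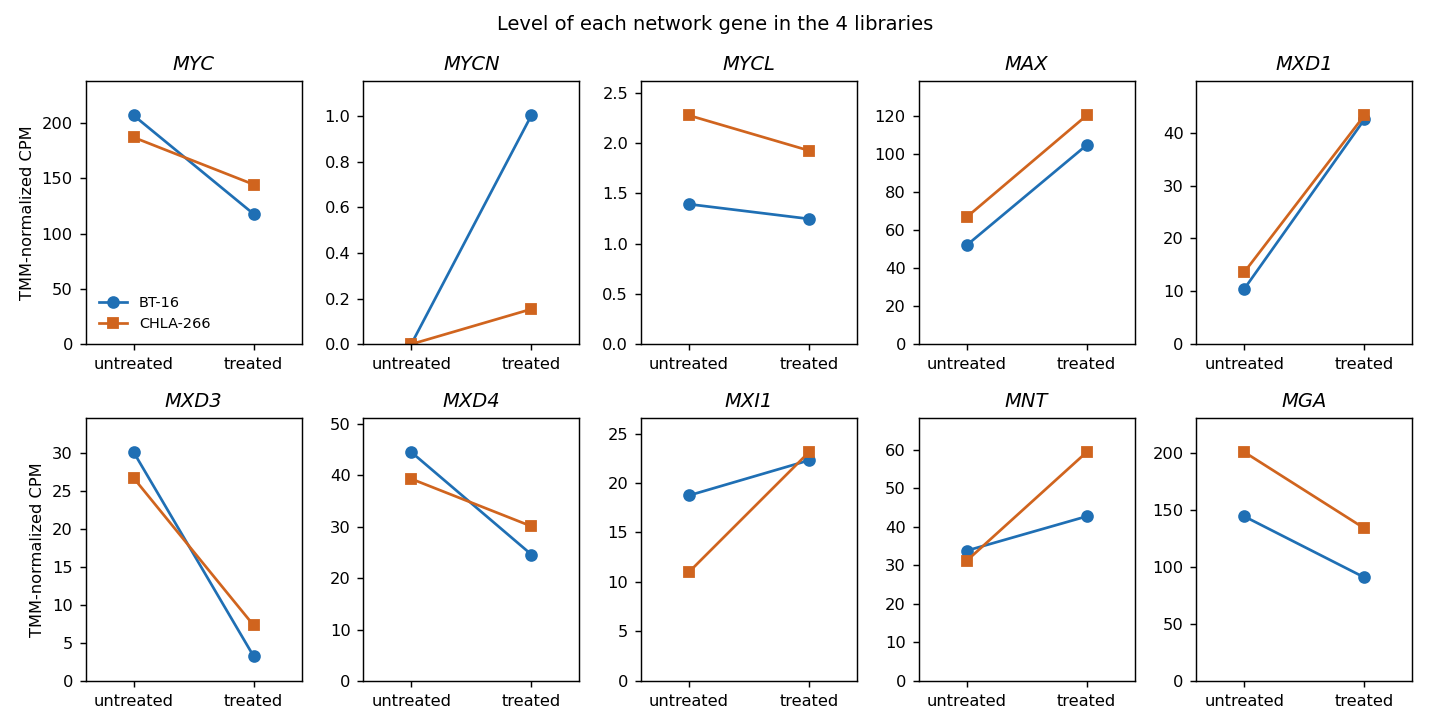
TMM-normalized CPM (linear axis from 0, own scale per gene) of the 10 network genes in untreated and treated cells, with 1 point per library and a line joining the libraries of BT-16 (blue circles) and CHLA-266 (orange squares). *MXD1* rose to 42.5 and 43.3 CPM in the treated libraries, while *MXD3* fell to 3.23 and 7.31 CPM.

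*MYC* (ENSG00000136997, chromosome 8 of hg38, 127735434 to 127742951, plus strand) was the most abundant of the activators. BT-16 gave 14275 counts before and 6804 after treatment, and CHLA-266 gave 11515 before and 7505 after. On the CPM scale BT-16 went from 207 to 118 and CHLA-266 from 187 to 144, so both treated libraries lay below both untreated libraries. Its mean level was 197 ± 14.1 CPM before and 131 ± 18.9 CPM after treatment (SD, n = 2), or 0.665 times the untreated level (edgeR log2 fold change -0.59 ± 0.17 SE, adjusted *p* = 0.0289). Within the cell lines, the log2 ratio of treated to untreated was -0.81 in BT-16, with a Clopper-Pearson 95% interval from -0.86 to -0.77, while CHLA-266 had -0.37 with limits of -0.42 and -0.33. These intervals cover counting error only, and whether the lines responded differently could not be tested with 1 library each. The fold change of *MYC* was negative under every scaling, but it did not pass the threshold with library totals (-0.36, adjusted *p* = 0.0937 in edgeR) or upper-quartile normalization (-0.24, adjusted *p* = 0.25). It also did not pass when untreated BT-16 cells (adjusted *p* = 0.127 in edgeR), treated BT-16 cells (0.121), or untreated CHLA-266 cells (0.0638) were left out.

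*MYCN* and *MYCL*, the other MYC genes, had the fewest counts of the members, and *MYCN* was close to the limit of detection. *MYCN* (ENSG00000134323, chromosome 2, 15940550 to 15947007, plus strand), the family member of neural progenitors and neuroblastoma, was at 0 counts before treatment in either line and afterwards reached 58 counts in BT-16 but 8 in CHLA-266. Against a floor of 3 counts per library, the mean level of the treated libraries was at least 12.5-fold higher (adjusted *p* = 0.0305 in edgeR). This bound holds for the mean and not for each cell line. The lower 95% limit of the log2 ratio from counting error reached 4.18 in BT-16, against 1.02 in CHLA-266. Nearly all counts came from treated BT-16 cells, and without that library the adjusted *p* was 0.311 in edgeR. When counts were halved, as for pairs of reads counted individually, the lower limit in CHLA-266 was -0.35, so that the interval then included no change. Olfactory receptor genes, which such cells should not use, give a reference for low levels. Of 342 receptor genes, 124 and 92 were detected in untreated BT-16 and CHLA-266 cells, and 300 and 214 in treated cells. Per kilobase of exon, *MYCN* had 0.364 CPM in treated BT-16 and 0.0559 CPM in treated CHLA-266 cells, below the 95th percentile of the receptors in both (0.532 and 0.443 CPM per kilobase). The part of this background in the rise of *MYCN* was not tested. *MYCL* (ENSG00000116990, chromosome 1, 39895428 to 39902256, minus strand), first known from lung cancer, gave 96 counts before and 72 after treatment in BT-16, and 140 before and 100 after in CHLA-266. Its CHLA-266 libraries were the higher ones in both conditions (2.27 and 1.92 CPM, against 1.39 and 1.25 CPM in BT-16), whereas treated and untreated libraries overlapped. The log2 fold change of -0.21 (SE 0.58, edgeR adjusted *p* = 0.787) was smaller than its error, and its sign turned under upper-quartile normalization (0.13) and library totals (0.0051). Per kilobase, *MYCL* lay above the 95th percentile of the receptors in untreated cells (0.28 and 0.458 against 0.0604 and 0.0651 CPM) and below it in treated cells (0.251 and 0.387 CPM).

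*MAX* (ENSG00000125952, chromosome 14, 65006174 to 65102695, minus strand), the shared partner of all other members, rose in both cell lines. Counts in BT-16 were 3581 before and 6045 after treatment, and in CHLA-266 they were 4105 and 6244. Its level went from 51.9 to 105 CPM in BT-16 and from 66.7 to 120 CPM in CHLA-266, so both treated libraries were far above the untreated ones. The rise was 1.89-fold (edgeR log2 fold change 0.92 ± 0.18 SE, adjusted *p* = 0.00587). *MAX* passed the threshold in all 14 alternatives, with log2 fold changes from 0.75 to 1.27. Compared with *MYC* within each library, which does not depend on scaling, *MAX* had 25.1 counts per 100 *MYC* counts before and 88.8 after treatment in BT-16, and 35.6 before and 83.2 after in CHLA-266. Per kilobase of all annotated exons, the ratio of *MAX* to *MYC* went from 0.245 to 0.867 in BT-16 and from 0.348 to 0.812 in CHLA-266. With the length of the canonical transcript, it went from 0.464 to 1.64 and from 0.66 to 1.54. Which of both genes was the more abundant after treatment therefore depends on the length used, and the rise of the ratio does not.

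**Figure D2:**
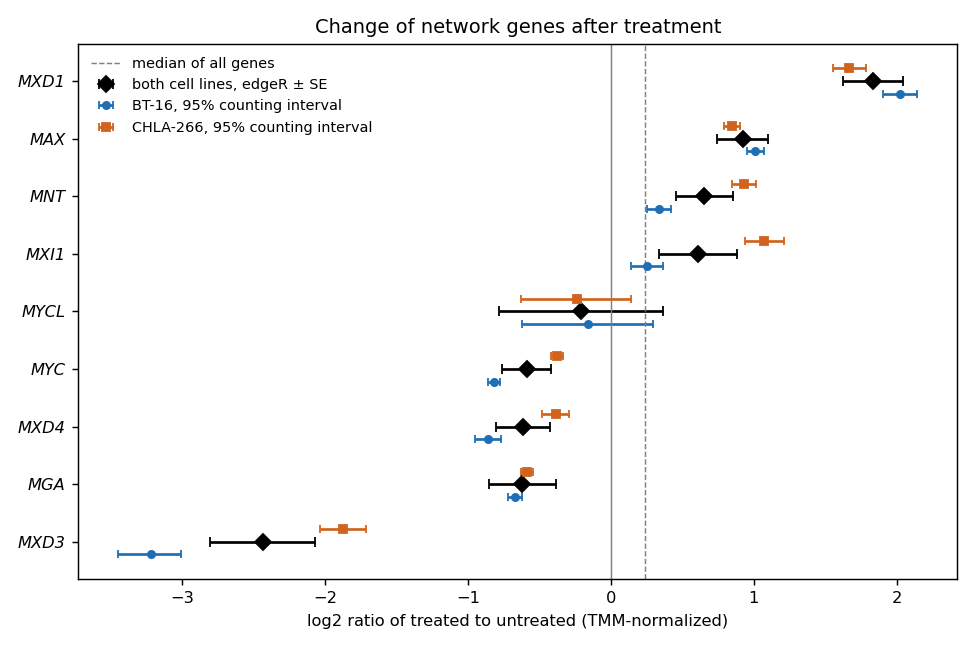
Log2 ratio of treated to untreated expression (x axis, TMM-normalized) of 9 network genes, without *MYCN*, which had 0 counts before treatment. Black diamonds are edgeR estimates over both cell lines with their standard error, colored points are the single cell lines with 95% counting intervals, and the dashed line is the median of all genes at 0.24. *MXD1* and *MXD3* lie farthest from 0, at 1.83 and -2.43.

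The 4 MXD genes moved in different directions. *MXD1* (ENSG00000059728, chromosome 2, 69897688 to 69942945, plus strand), the founding MXD antagonist, had the largest rise of the members detected before treatment. BT-16 had 721 counts before and 2457 after treatment, against 838 and 2249 in CHLA-266. Both cell lines reached nearly the same level, from 10.5 to 42.5 CPM in BT-16 and from 13.6 to 43.3 CPM in CHLA-266. This was a 3.56-fold rise (edgeR log2 fold change 1.83 ± 0.21 SE, adjusted *p* = 0.000414), and it passed in all 14 alternatives with values from 1.603 to 2.18. Per 100 *MYC* counts, *MXD1* went from 5.05 to 36.1 counts in BT-16 and reached 30.0 from 7.28 in CHLA-266.

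*MXD3* (ENSG00000213347, chromosome 5, 177301461 to 177312757, minus strand), the MXD gene known for expression in dividing cells in S phase, moved the other way. Counts in BT-16 fell from 2082 to 187, and those of CHLA-266 from 1648 to 380. On the CPM scale BT-16 went from 30.2 to 3.23 and CHLA-266 from 26.8 to 7.31, so both lines started from a similar level and ended well below it. The decrease was 5.41-fold (edgeR log2 fold change -2.43 ± 0.37 SE, adjusted *p* = 0.00171) and passed in all 14 alternatives with values from -3.12 to -1.82. It was deeper in BT-16 (log2 ratio -3.22, 95% interval -3.45 to -3.01) than in CHLA-266 (-1.87, -2.04 to -1.71), and this difference was not tested beyond counting error. The proliferation markers moved in the same direction, for example *MKI67* (log2 fold change -6.03), *CDK1* (-5.31), and *TOP2A* (-4.98), and their part in the fall of *MXD3* was not tested. Exons of *MXD3* lie within the span of *PRELID1* (1450 bases, opposite strand) and *RAB24* (926 bases, same strand), so that its reads could be shared. *PRELID1* fell as well (edgeR log2 fold change -1.23, adjusted *p* = 0.000997), while *RAB24* had a value of 0.21 (adjusted *p* = 0.661).

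*MXD4* (ENSG00000123933, chromosome 4, 2247432 to 2262109, minus strand), an MXD antagonist of resting and differentiating cells, gave 3074 counts before and 1423 after treatment in BT-16, and 2422 before and 1565 after in CHLA-266. Levels fell from 44.6 to 24.6 CPM and from 39.3 to 30.1 CPM, without overlap between the conditions. The 1.53-fold decrease (edgeR log2 fold change -0.62 ± 0.19 SE, adjusted *p* = 0.0343) was lost with library totals (-0.39, adjusted *p* = 0.118) and upper-quartile normalization (-0.27, adjusted *p* = 0.259). It was also lost when untreated BT-16 (adjusted *p* = 0.159 in edgeR), treated BT-16 (0.113), or untreated CHLA-266 cells (0.0719) were left out. *MXD4* stayed at a nearly constant proportion to *MYC*, with 21.5, 20.9, 21.0, and 20.9 counts per 100 *MYC* counts in untreated and treated BT-16 and untreated and treated CHLA-266 cells.

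*MXI1* (ENSG00000119950, chromosome 10, 110207605 to 110287365, plus strand), an MXD antagonist also known as a target of hypoxia signaling, gave 1293 counts before and 1289 after treatment in BT-16, and 677 before and 1202 after in CHLA-266. The untreated libraries differed (18.7 CPM in BT-16 and 10.998 CPM in CHLA-266), while the treated ones were alike (22.3 and 23.1 CPM). Its log2 fold change of 0.61 (SE 0.28, edgeR adjusted *p* = 0.114) did not pass, and it was called once the cell line entered as a block (0.66, adjusted *p* = 0.018). Within the cell lines, the log2 ratio was 0.25 in BT-16 (95% interval 0.14 to 0.36) and 1.07 in CHLA-266 (0.94 to 1.21).

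Summed per kilobase of all annotated exons, the 4 MXD genes had 17.7 CPM before and 14.7 CPM after treatment in BT-16, and 15.4 CPM before and 16.7 CPM after in CHLA-266. No direction is drawn from this sum, whose values shift with the scaling, whereas its make-up within a library does not depend on scaling and changed alike in both lines. *MXD1* made up 9.32% of the sum before and 45.4% after treatment in BT-16, and 13.9% before and 40.9% after in CHLA-266. The share of *MXD3* went from 36.02% to 4.63% in BT-16 and from 36.7% to 9.26% in CHLA-266. With canonical transcript lengths, the share of *MXD3* was 60.1% before and 12.9% after treatment in BT-16, and 61.4% before and 23.6% after in CHLA-266, so the size of its share depends on the length and its direction does not. The share of *MXD4* fell with all exons, from 36.7% to 24.3% in BT-16 and from 37.2% to 26.3% in CHLA-266, but with canonical lengths it went up, from 24.4% to 27.1% and from 24.9% to 26.7%. The ratio of *MYC* to the summed MXD genes also depends on the length. It went from 1.92 to 1.31 in BT-16 and from 1.99 to 1.42 in CHLA-266 with all exons, but from 1.18 to 1.35 and from 1.23 to 1.33 with canonical transcripts, since *MXD3* then weighs more. No direction is drawn from this ratio.

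**Figure D3:**
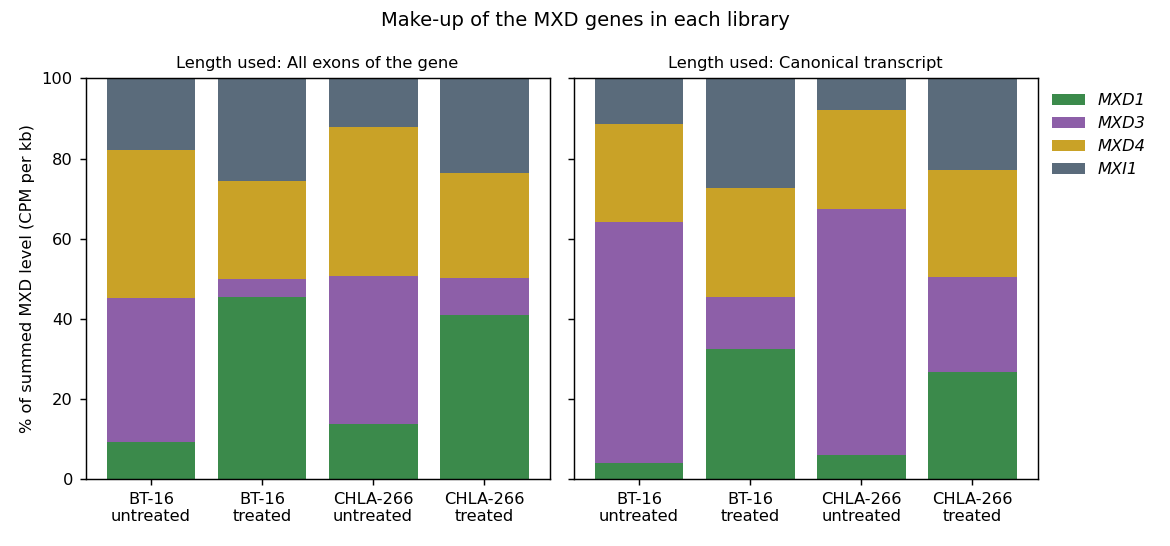
Share (%) of *MXD1*, *MXD3*, *MXD4*, and *MXI1* in their summed level in CPM per kilobase, with 1 bar per library, using the length of all annotated exons (left) or of the canonical transcript (right). With either length, *MXD1* took a larger share after treatment (9.32% to 45.4% in BT-16 with all exons) and *MXD3* a smaller one.

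*MNT* (ENSG00000070444, chromosome 17, 2384073 to 2401104, minus strand), a broadly expressed antagonist of MYC outside the MXD family, gave 2329 counts before and 2467 after treatment in BT-16, and 1916 before and 3084 after in CHLA-266. Its level rose from 33.8 to 42.7 CPM and from 31.1 to 59.3 CPM, so the untreated libraries were close and the treated ones apart. The rise was 1.57-fold (edgeR log2 fold change 0.65 ± 0.20 SE, adjusted *p* = 0.0344). It did not pass without untreated BT-16 (adjusted *p* = 0.0789 in edgeR), untreated CHLA-266 (0.135), or treated CHLA-266 cells, for which it was 0.41 with an adjusted *p* of 0.168. *MGA* (ENSG00000174197, chromosome 15, 41621134 to 41773081, plus strand) gave 9963 counts before and 5251 after treatment in BT-16, and 12365 before and 6961 after in CHLA-266. Levels were 144 and 90.8 CPM in BT-16 and 201 and 134 CPM in CHLA-266, with treated below untreated cells in each line and CHLA-266 above BT-16 in each condition. The log2 fold change of -0.62 (SE 0.23, edgeR adjusted *p* = 0.0677) did not pass, whereas it did once the cell line entered as a block (-0.63, standard error 0.15, adjusted *p* = 0.000811).

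Per kilobase of all exons, *MYC* had the highest level of the 10 genes in all 4 libraries (33.9 and 19.3 CPM in untreated and treated BT-16, 30.6 and 23.6 CPM in CHLA-266) and *MAX* the second (8.30 and 16.7, 10.7 and 19.2 CPM). *MGA*, *MXD4*, and *MXD3* followed in untreated cells, with 7.19, 6.48, and 6.36 CPM in BT-16, of which *MXD4* and *MXD3* differed by less than the spread between cell lines. After treatment, *MXD1* and *MNT* held the next places, with 6.69 and 4.90 CPM per kilobase in BT-16 and 6.81 and 6.82 CPM in CHLA-266, where they were nearly equal. *MYCL* and *MYCN* were lowest throughout. With canonical lengths, *MXD3* ranked higher in untreated cells, above *MAX* in BT-16 (28.3 against 25.8 CPM) and between *MAX* and *MGA* in CHLA-266 (25.1 against 33.2 and 16.5 CPM), and *MAX* stood above *MYC* in both treated libraries (52.0 against 31.6 CPM in BT-16 and 59.8 against 38.8 CPM in CHLA-266). Together, *MNT* and *MGA* made up 15.6% of the summed network level before and 15.5% after treatment in BT-16, and 19.2% before and 18.4% after in CHLA-266.

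To ask whether the cell lines differ in the network, CHLA-266 was compared with BT-16 with the condition in the model. None of the 10 genes was called in edgeR's quasi-likelihood test, beside 0.836% of all genes called higher and 1.46% called lower in CHLA-266 (2.3% in either direction). *MYCL* was higher in both CHLA-266 than in both BT-16 libraries, as were 6.55% of all genes, with a log2 fold change of 0.67 (adjusted *p* = 0.904 in edgeR). *MGA* was the one gene with an unadjusted *p* under 0.05 (edgeR log2 fold change 0.52 ± 0.14 SE, adjusted *p* = 0.0527), and DESeq2 called it (adjusted *p* = 0.046). Its level was 167 CPM on average in CHLA-266 and 118 CPM in BT-16, a 1.43-fold difference, and scaling by DESeq2 size factors, library totals, or the upper quartile brought it past the threshold (adjusted *p* from 0.00816 to 0.0215 in edgeR). *MYC* differed by 0.07 on the log2 scale (standard error 0.15).

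Genes that MYC is known to activate or repress were described by their counts, without a test of the list. Of 64 growth and ribosome biogenesis targets, 50 (78.1%) were lower, 1 was higher, and 13 were not called, beside 19.1% of all genes called lower and 16.1% called higher. Their median log2 fold change was -0.86, against 0.24 over all genes, and with upper-quartile normalization 30 were called lower, beside 1895 of all 18066 genes. *MCM4* and *MCM5*, subunits of the replicative helicase, had log2 fold changes of -3.33 and -3.11, and *PLK1*, a mitotic kinase, of -4.60. Without 7 members that act in replication, repair, or the cell cycle, left out after the values were seen, 44 of 57 (77.2%) were lower, with a median of -0.83. *NCL*, the nucleolar protein nucleolin, had the highest mean count of the list, with 223246 counts before and 82511 after treatment in BT-16, and 227214 before and 97268 after in CHLA-266 (edgeR log2 fold change -1.07 ± 0.20 SE, adjusted *p* = 0.0048). *RRP12*, a ribosome export factor, was the only one called higher (0.71, adjusted *p* = 0.0097), but none was called higher without untreated BT-16 cells and 2 were under upper-quartile normalization or library totals. All 12 proliferation markers fell alongside, and their part in the fall of the targets was not tested.

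Of 10 genes known as repressed by MYC, 6 were higher and none was lower after treatment, beside 16.1% of all genes called higher, and their median log2 fold change was 1.86. *CDKN1A*, the CDK inhibitor p21 and a p53 target, gave 8181 counts before and 25541 after treatment in BT-16, and 6485 before and 19760 after in CHLA-266 (edgeR log2 fold change 1.88 ± 0.17 SE, adjusted *p* = 0.000136). *CDKN2B*, the CDK inhibitor p15, rose by 2.05 and the stress gene *GADD45A* by 1.29 on the log2 scale. The count of these genes moved to 7 at most under the other scalings.

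Among 17 members of the SIN3-HDAC corepressor that MXD proteins recruit, 1 was higher and 6 were lower, beside 16.1% and 19.1% of all genes. The scaffold paralogs moved apart, with *SIN3B* higher (edgeR log2 fold change 1.16, adjusted *p* = 0.00211) and *SIN3A* lower (-0.95, adjusted *p* = 0.0027). Counts of *SIN3B* in BT-16 were 6632 before and 10860 after treatment, and those in CHLA-266 were 6107 and 12977. *SIN3A* went from 11184 to 4609 counts in the former line and from 8849 to 4084 in the latter. *SAP30* (-1.29) and the deacetylase *HDAC2* (-0.99) were lower as well. With upper-quartile normalization, 2 were called higher and 3 lower, beside 4361 and 1895 of all 18066 genes.

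Of 11 partners of MGA in PRC1.6, 7 were lower and 1 was higher, beside 19.1% and 16.1% of all genes. *TFDP1*, a partner of E2F factors, had a log2 fold change of -2.09, the ubiquitin ligase *RNF2* of -1.47, and the heterochromatin protein gene *CBX3* of -1.33, while the adaptor *RYBP* rose by 0.94. In the MLX branch, which shares E-box binding with the MAX network, *MLX* (-0.62, adjusted *p* = 0.0175 in edgeR) and *MLXIP* (-0.86, adjusted *p* = 0.0265) were lower among 5 genes, beside 19.1% of all genes, and neither was called under upper-quartile normalization, under library totals, or without either untreated library. Of 19 MYC coactivators and partners, 9 were lower and none was higher, beside 19.1% and 16.1% of all genes. The decreases were led by the chromatin-associated subunits *ACTL6A* (-1.53), *RUVBL1* (-1.38), and *WDR5* (-1.30). When the cell line entered as a block, 10 were called lower and 2 higher, beside 23.7% and 17.9% of all genes. With upper-quartile normalization 4 were called lower and 2 higher, beside 1895 and 4361 of all 18066 genes, and with library totals the numbers were also 4 and 2, beside 2353 and 3678. *BPTF*, with the highest mean count of the list over the 4 libraries, was not called (-0.24, adjusted *p* = 0.334 in edgeR).

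Among 21 regulators of MYC turnover, 9 were lower and 3 were higher, beside 19.1% and 16.1% of all genes. *AURKA* (-3.58) and *CIP2A* (-3.70), which stabilize MYC proteins and are also mitotic genes, and *SKP2* (-1.79), a ubiquitin ligase subunit, led the decreases. *PIM1*, a kinase that stabilizes MYC, gave 1315 counts before and 3215 after treatment in BT-16, and 851 before and 3870 after in CHLA-266 (edgeR log2 fold change 1.98 ± 0.23 SE, adjusted *p* = 0.000449). The ubiquitin ligase subunits *FBXW7* (0.58, adjusted *p* = 0.019) and *BTRC* (0.57, adjusted *p* = 0.0222), which mark MYC for degradation or modify it, were higher. *SET*, an inhibitor of the phosphatase PP2A, had the highest mean count of the list and was lower (-0.98).

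**Figure D4:**
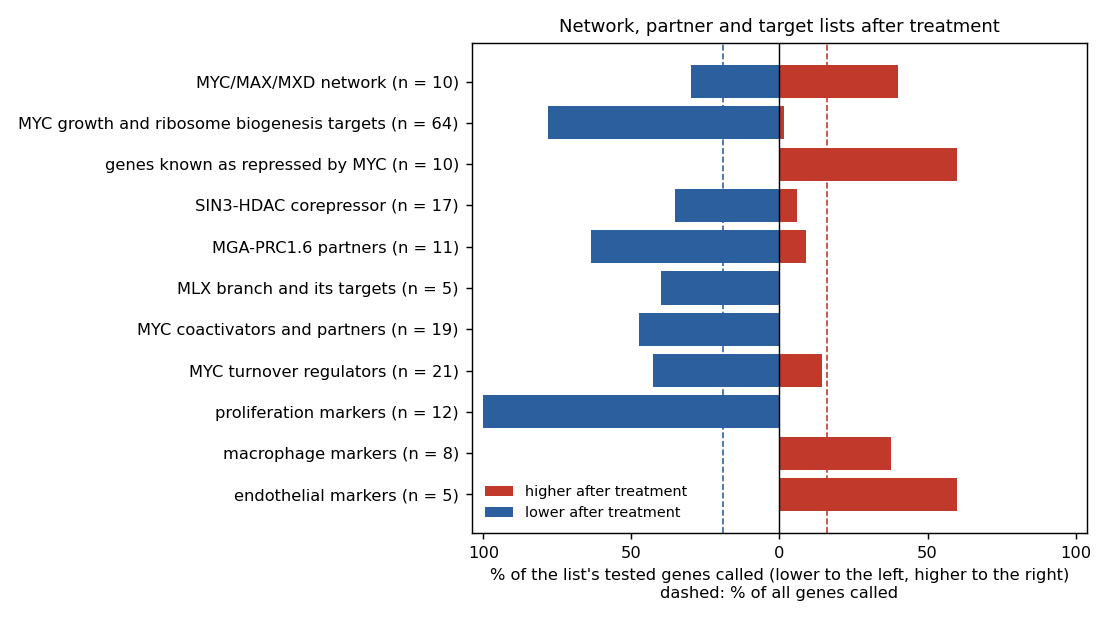
Percent of the tested genes of each list called lower (blue, to the left) or higher (red, to the right) after treatment in edgeR, with dashed lines at the shares of all genes (19.1% lower and 16.1% higher). Lower calls reach 78.1% of the MYC growth targets, and the network itself is split into 4 genes higher and 3 lower.

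Markers of other cell types were low. The 8 macrophage markers summed to 3.49 and 6.48 CPM before and 7.12 and 9.81 CPM after treatment, with 3 called higher (*AIF1*, *LAPTM5*, and *C1QA*), beside 16.1% of all genes, and *CD68* was at 0 in both treated libraries. These 3 had fewer than 10 counts in each untreated library, and *C1QA* was not called when the cell line entered as a block (adjusted *p* = 0.109 in edgeR). The macrophage markers with the most counts, *CSF1R* and *PTPRC*, were not called, and neither were *CD14* and *TYROBP*. Counts of *CSF1R* rose from 151 to 261 in BT-16 but fell from 166 to 98 in CHLA-266. Those of *PTPRC* fell from 287 to 167 in the former line and rose from 30 to 64 in the latter. Without untreated BT-16 cells 1 macrophage marker was called higher, and without treated CHLA-266 cells 0 were. Of the 5 endothelial markers, 3 were called higher (*VWF*, *CDH5*, and *KDR*), beside 16.1% of all genes, while *PECAM1* and *CLDN5* were not called. The sum of the list was 1.14 and 2.04 CPM before and 7.89 and 10.8 CPM after treatment. *VWF* had the most counts, 405 in treated BT-16 and 216 in treated CHLA-266 cells. Olfactory receptor genes were also detected more often after treatment (124 before and 300 after in BT-16, 92 before and 214 after in CHLA-266). The part of this background in the marker calls was not tested, nor was the part of these markers in the changes of the network. Among the pathway genes, those with the profile over the 4 libraries most like *MYC*, by Euclidean distance of centered log2 CPM among 145 genes, were *UNG* (distance 0.07, log2 fold change -0.59), *MYBBP1A* (0.13, -0.53), and *POLR1B* (0.17, -0.65).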

How the data were processed

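RNA of 4 libraries, 1 per cell line and condition in the batch that the labels name, was sequenced with paired ends from a stranded kit. After adapter trimming, the authors used STAR with hg38 for alignment, counted reads per gene, and removed repeatedly counted genes and genes of the sex chromosomes. The deposited estimated counts are not normalized, and the 5 fractional values found in 2 genes were rounded. The deposited log2 values are variance-stabilized counts of 17553 genes and served in an alternative. Tests used edgeR 4.0.16 in R 4.3.3 (quasi-likelihood, TMM, condition alone) over all 18066 genes with a nonzero total. The cell line comparison had the condition in the model. Standard errors are the log2 fold change divided by the root of F. Ratios within a cell line had 0.5 counts added and exact Clopper-Pearson 95% intervals. The total per library was 49849258 to 75087194 counts, and intervals and floors of 3 counts cover counting error only. Among counts from 1 to 20, 20.5% to 34.2% were odd, so pairs may have been counted as separate reads and intervals may be too narrow. The strand setting of the counting is not given in the sources used here. The labels do not say that libraries came from separate cultures, so that *p* values measure the spread between these libraries. The cell line itself pairs the libraries, and deviations from the condition means within a line had a correlation of 0.321 over 12620 genes.

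Alternatives were the cell line as block, DESeq2 1.42.0, other scalings and count filters, halved counts, limma 3.58.1, and each library left out. Canonical transcript lengths and the target list without cell cycle genes were added after seeing the data. The members and lists were chosen with earlier results of these data known. Lists were written from general knowledge. Named are all members and, of each list, the 3 called genes of smallest adjusted *p* in each direction, the gene with most counts, and the 3 genes nearest to *MYC* by profile. All macrophage and endothelial markers are named. Coordinates and lengths come from GENCODE 44 on hg38 for 18357 symbols, and promoters from RefSeq. The tests were run on simulated counts whose spread was set smaller than that of these libraries, so no error rate for these data follows from them.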

Additional observations from a re-analysis of the deposited data

How the results depend on the processing

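Of 138 log2 fold changes of members recomputed for treated against untreated cells, 106 kept their direction and side of the threshold, 19 lost and 9 gained significance, and 4, all of *MYCL*, changed sign. These were 0.13 with upper-quartile normalization and 0.0051 with library totals, and with each library left out in turn *MYCL* ranged from -0.55 to 0.19. *MAX*, *MXD1*, and *MXD3* passed the threshold in all 14 alternatives each. The number of members called higher was 4, and 2 to 3 with each library left out, lowest without untreated CHLA-266 cells. The number called lower was 3, and 1 with upper-quartile normalization, with library totals, or with a minimum of 10 counts per library, and 1 to 4 with each library left out, lowest without treated BT-16 or untreated CHLA-266 cells. Leaving out a library leaves 1 sample in a condition, which is then assumed to vary like the others. For these fits and for the minimum of 10 counts, the calls over all genes are not given here. A drop in member calls there cannot be told from a drop in calls over all genes. Over all genes, 1895 instead of 3454 were called lower with upper-quartile normalization, where 69.7% of calls were higher, against 45.7% with TMM, 50.4% with DESeq2 size factors, and 61.0% with library totals. *MYCN* did not pass with limma on the log2 values (adjusted *p* = 0.0514) or without untreated BT-16 (0.0634 in edgeR) or untreated CHLA-266 cells (0.0626). *MYC* (adjusted *p* = 0.0762 in edgeR) and *MXD4* (0.09) did not pass with a minimum of 10 counts. *MXI1* passed with upper-quartile normalization (adjusted *p* = 0.0228 in edgeR) and with library totals (0.0439). Without untreated BT-16 cells, both *MXI1* and *MGA* passed, and *MGA* also passed without treated CHLA-266 cells. With the cell line as replicate block in edgeR, 5 members were called higher and 4 lower, and no other call on a member changed. For CHLA-266 against BT-16, no member was called, and 1 was called higher, *MGA*, with DESeq2, DESeq2 size factors, upper-quartile normalization, or library totals. Over all genes, 151 were called higher and 264 lower in CHLA-266. Without the condition in the model (no replicate block), 0 and 0 were called. Called higher were 272 genes with DESeq2 size factors, 239 with upper-quartile normalization, 45 over genes with at least 10 counts, and 54 after the filter of edgeR. Called lower were 168 with DESeq2, 408 with its size factors, 477 with library totals, 85 over genes with at least 10 counts, and 107 after the filter of edgeR. The cause of these shifts was not tested. With a library left out, this comparison has no residual degrees of freedom and gave values without a test. The ratio of *MYC* to the summed MXD genes moved to between 1.18 and 1.35 with canonical lengths. Of 308 counts of list members, 272 were within 1.5 times of the main count. *MYCN* and *MYCL*, with at most 58 and 140 counts, are the members with the fewest counts.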

Other observations

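Exons of *MAX* and *MXD1* also lie within the span, introns included, of other genes of the count table. For *MAX*, 1196 exon bases lie within *FNTB* and 997 within *CHURC1-FNTB*, both on the opposite strand. *CHURC1-FNTB* had 0 counts in every library, and *FNTB* gave 409 counts before and 376 after treatment in BT-16, and 303 before and 265 after in CHLA-266. For *MXD1*, 292 exon bases lie within the span of *SNRNP27* on the same strand. *SNRNP27* was lower after treatment (edgeR log2 fold change -0.58, adjusted *p* = 0.0337), whereas *MXD1* was higher. Long noncoding RNA genes outside the count table also overlap members on the opposite strand. The largest such overlap was 2761 exon bases of *MYC* within *CASC11*. *MGA* had up to 1977 and *MNT* 1818 such bases, and *MAX*, *MYCN*, *MXI1*, and *MYCL* had fewer. The part of these overlaps in the counts was not tested.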
